A study of Mus musculus with 2 samples.

Results

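The ATP-binding cassette (ABC) transporters were followed in messenger RNA of colon epithelial cells from C57BL/6 mice. One preparation was wild type and the other was Pkm2-/- (the knockout in the plots), which lacks an isoform of the glycolytic enzyme pyruvate kinase, and mice of both genotypes had received 2.5% dextran sulfate sodium (DSS) over 3 days. DSS damages the gut surface, so neither library stands for undamaged colon. Members were all genes whose symbol consists of Abc, a subfamily letter from a to g and a number. Pseudogene symbols ending in -ps were left out, rows that shared a symbol were summed, and a gene listed in 1 library was taken as 0 in the other. This symbol rule used no measured value, though earlier results of these data were known when the members were chosen. It gave 46 of 22350 gene symbols, 14 in subfamily A, 9 in B, 9 in C, 4 in D, 1 in E, 3 in F and 6 in G. With 1 library per genotype there was no replicate and no test, and all differences below describe these 2 libraries. The sources used here give neither the age of the mice, nor the number pooled per library, nor how the Pkm2 allele was built.

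ABC proteins bind and split ATP in a conserved nucleotide-binding domain. In most members this drives a substrate through a membrane: drugs and conjugated anions in parts of subfamilies B, C and G, lipids and sterols in A and G, and fatty acids or vitamin B12 at peroxisomes and lysosomes in D. Subfamilies E and F have the ATP-binding domain without a membrane part and work at the ribosome. In the colon, exporters on the luminal face return foreign compounds to the gut contents, and others on the blood side release conjugates and bile acids.

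Levels are given as FPKM, the fragments of a gene per kilobase of its transcript relative to all those mapped, which are scaled for transcript length and so allow levels of different genes to be set side by side. Where a pair of values is given, the wild type comes first, and a gene is called measured when its mean over both libraries is 1 FPKM or more. The smallest values stepped by the worth of 1 fragment, which corresponded to about 18800000 fragments in wild type cells and 20900000 in Pkm2-/- cells. The gene-level value of Pkm, which covers all its isoforms, was 281 FPKM in wild type cells and 86.2 FPKM in Pkm2-/- cells, 3.26-fold lower. The labelled tissue was checked with 8 epithelial markers, all measured, whose summed level was 3717 FPKM in wild type cells and 4261 FPKM in Pkm2-/- cells. Markers of fibroblasts (sums of 4.34 and 1.35 FPKM), endothelium (1.46 and 0.825 FPKM) and smooth muscle or pericytes (0.162 and 0.295 FPKM) were low in both, and Lum and Rgs5 were listed in neither library. The 4 erythrocyte markers summed to 18.6 and 1.20 FPKM, the 7 goblet markers to 11637 and 10623 FPKM.

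The conserved ATP site is shown for the 6 members that lay at least 1.5-fold apart between the libraries, and for Abcb4, the neighbour of the Abcb1 pair. Each stretch is 48 coding bases from the longest annotated coding sequence (GENCODE M21, GRCm38), read from 5′ to 3′ on the gene's strand. Capitals mark the codons of the first Walker A loop, the glycine-rich turn that holds the phosphates of ATP, found as glycine, any residue, any residue, glycine, any residue, glycine, lysine and then serine or threonine.
Abcb1a: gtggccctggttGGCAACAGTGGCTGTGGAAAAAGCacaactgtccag
Abcb1b: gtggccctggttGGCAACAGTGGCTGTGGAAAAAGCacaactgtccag
Abcb4: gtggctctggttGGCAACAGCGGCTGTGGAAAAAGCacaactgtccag
Abcc5: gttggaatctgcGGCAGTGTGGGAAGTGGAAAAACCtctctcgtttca
Abcg2: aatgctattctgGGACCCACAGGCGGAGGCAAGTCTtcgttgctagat
Abca12: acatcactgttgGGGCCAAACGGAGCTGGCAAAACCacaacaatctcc
Abcg1: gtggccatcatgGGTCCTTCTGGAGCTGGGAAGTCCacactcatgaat
The loop covers codons 423 to 430 in Abcb1a and 426 to 433 in Abcb1b, and the printed stretches of these genes had 0 differing bases. Over 3816 aligned bases their coding sequences were 88.2% identical, and 21.4% of the 31-base words of the Abcb1a transcript also occur in Abcb1b, so reads could be split between them. Abcb4 differed from both in 2 bases of the stretch and was 76.3% identical to Abcb1a. Among the 27 members with a mean of 1 FPKM or more, 17 had 2 such loops, as in Abcb1a with 1276 codons, and 10 had 1, as in Abcg2 with 657 codons, whose protein works as a pair.

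Promoter windows of RefSeq (GRCm38.p6, 250 bases before to 50 after a start) matched 34 of the 46 members. Windows are printed for Abcb1b and Abca12, members more than 2-fold lower in Pkm2-/- cells, and for Abcg5, which faces Abcg8. Capitals mark the CCAAT box (CCAAT or ATTGG) and the GC box (GGGCGG or CCGCCC), searched on both strands. Of 32851 windows of this length, 37.4% hold a CCAAT box and 35.7% a GC box.
Abcb1b, chr5:8797897-8798196, plus strand: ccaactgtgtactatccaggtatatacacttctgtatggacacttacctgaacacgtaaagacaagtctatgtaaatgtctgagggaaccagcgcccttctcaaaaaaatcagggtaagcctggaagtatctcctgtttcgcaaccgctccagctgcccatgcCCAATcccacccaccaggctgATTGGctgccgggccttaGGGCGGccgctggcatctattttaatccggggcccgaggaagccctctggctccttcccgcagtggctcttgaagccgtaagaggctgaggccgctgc
Abca12, chr1:71414861-71415160, minus strand: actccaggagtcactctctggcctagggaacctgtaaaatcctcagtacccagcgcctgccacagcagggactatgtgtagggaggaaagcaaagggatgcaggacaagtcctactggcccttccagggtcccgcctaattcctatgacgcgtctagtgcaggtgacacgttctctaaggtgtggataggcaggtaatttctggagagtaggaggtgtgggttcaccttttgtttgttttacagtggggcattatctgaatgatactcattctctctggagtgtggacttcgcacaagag
Abcg5, chr17:84682962-84683261, minus strand: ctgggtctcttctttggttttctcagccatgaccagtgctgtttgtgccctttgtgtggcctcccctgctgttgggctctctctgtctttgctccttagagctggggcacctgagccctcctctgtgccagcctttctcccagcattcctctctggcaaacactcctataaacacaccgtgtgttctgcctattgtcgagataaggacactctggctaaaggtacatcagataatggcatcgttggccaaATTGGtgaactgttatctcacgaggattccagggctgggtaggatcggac
The Abcb1b window held 2 CCAAT boxes and 1 GC box. The Abca12 window held neither of them. The Abcg5 window held 1 CCAAT box, and 209 of its bases lie in a window of Abcg8 on the opposite strand, whose start is 110 bases away. The RefSeq window of Abcb1a lies 93.0 kb before the start annotated in GENCODE and is not printed.

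Among the members chosen by symbol, 3 were at least 2-fold lower in Pkm2-/- than in wild type cells, while 0 were 2-fold higher. The log2 ratio of knockout over wild type, taken after adding 1 FPKM to each value, decided these counts, over the 27 members with a mean of 1 FPKM or more. The 3 lower genes, Abcb1a, Abcb1b and Abca12, were 11.1% of these 27, beside 1.9% of all 12429 genes with such a mean, and 1.42% of all genes were at least 2-fold higher. At 1.5-fold, Abcc5 and Abcg2 joined the lower genes, which made 5 members (18.5%, beside 5.29% of all genes). Abcg1 was the 1 member that was higher at this size (3.70%, beside 4.46% of all genes). The other 21 members, 77.8%, lay within 1.5-fold, as did 90.2% of all genes. Tap1, Tap2 and Cftr, ABC proteins under other symbols, are not in these counts. Their log2 ratios were 1.46, 0.62 and 0.42, so Tap1 was more than 2-fold and Tap2 more than 1.5-fold higher. Of all genes, 58.8% had a log2 ratio above 0 and 41.2% below. The median log2 ratio of the 27 members was 0.02, with 14 above 0 and 13 below, next to 0.06 for all genes. It fell on the other side of 0 with equal library medians (-0.056) and equal upper quartiles (-0.038). With equal sums without mitochondrial genes and their copies it was -0.027, but that scaling also changed which members passed the 1 FPKM filter.

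**Figure D1:**
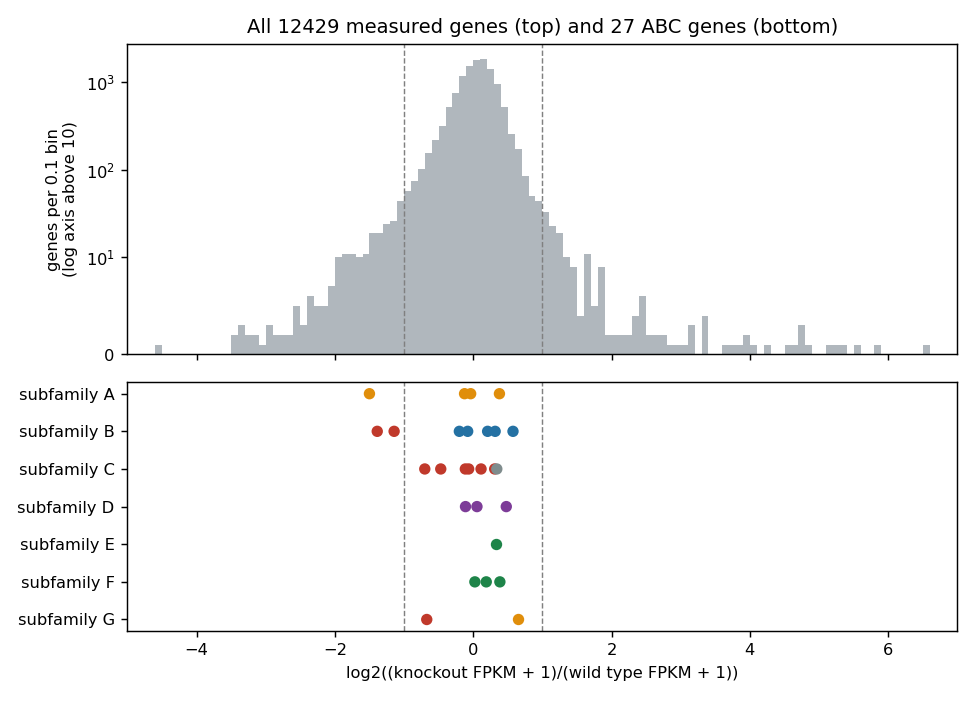
The upper panel counts all 12429 measured genes by log2 ratio (knockout to wild type), in bins of 0.1 with a count axis that is logarithmic above 10, and the lower panel shows each of the 27 measured ABC genes as a point in its subfamily row, coloured by role as in the plots of levels and ratios. Dashed lines mark 2-fold, and 3 ABC points lie to the left of them and 0 to the right.

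The summed level of the 46 members was 627 FPKM in wild type cells and 478 FPKM in Pkm2-/- cells, 1.31-fold lower. Nearly all of this gap lay in 1 gene, since the other 45 members summed to 405 and 394 FPKM. Abcb1a made up 35.4% of the family sum in wild type cells and 17.6% in Pkm2-/- cells, and was the most abundant member in both. Abcd3 was the next in both libraries. Tap1, Tap2 and Cftr, ABC proteins under other symbols, are outside this sum and ranking. They were at 59.6 and 165 FPKM, 27.2 and 42.4 FPKM, and 26.2 and 35.4 FPKM, all higher in Pkm2-/- cells. The 1.31-fold difference thus holds only for the 46 members chosen by symbol. In Pkm2-/- cells Tap1 stood above Abcb1a, which was at 84.3 FPKM.

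**Figure D2:**
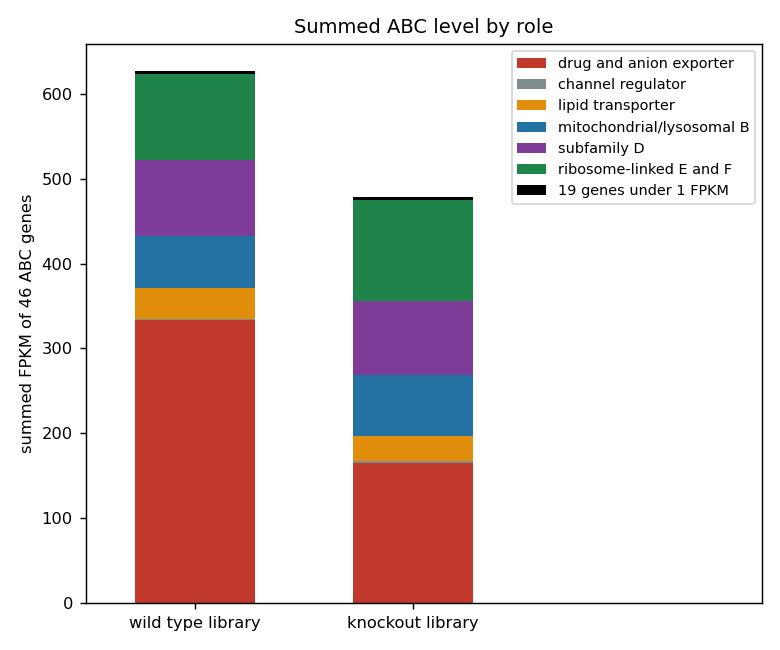
Stacked bars give the summed FPKM of all 46 ABC genes in each library, split by role. The exporter segment is 333 FPKM in wild type cells and 165 FPKM in Pkm2-/- cells, and the segment of ribosome-linked members is 101 and 120 FPKM.

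The drug and organic anion exporters of the plasma membrane were the role with the largest difference in sum. Their 9 measured members made 333 FPKM in wild type cells and 165 FPKM in Pkm2-/- cells, 2.02-fold lower, and 53.1% against 34.5% of the family sum. Without Abcb1a the remaining 8 stood at 111 and 80.7 FPKM, 1.37-fold lower. The median log2 ratio of the 9 was -0.47, beside 0.06 for all genes. Of the 9, 7 were below 0, beside 41.2% of all genes, and 4 were at least 1.5-fold lower, beside 5.29%. The 4 include Abcb1a and Abcb1b, which share sequence. The roles were chosen with earlier results of these data known, so these shares only describe the group.

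Abcb1a encodes P-glycoprotein, the luminal pump for many hydrophobic drugs (chr5:8660077-8748575 on GRCm38, plus strand, 28 exons). It stood at 222 FPKM in wild type cells and 84.3 FPKM in Pkm2-/- cells, resting on about 20847 and 8806 fragments. The knockout value was 2.64-fold lower (approximate 95% counting interval 2.57 to 2.70, counting error only), and the gene moved from rank 270 to rank 838 among all genes. An opposite-strand gene, Gm42686, covers 10.1% of its exonic bases and was at 1.48 and 0.504 FPKM. Abcb1b, its paralogue 49.6 kb downstream (chr5:8798147-8866315, plus strand), was at 6.97 FPKM in wild type cells and 2.61 FPKM in Pkm2-/- cells. That is 2.67-fold lower (2.30 to 3.13), and since the paralogues share sequence, as the stretches above show, the Abcb1b value is uncertain. Abcb4, which encodes a phospholipid floppase of bile canaliculi and lies 27.4 kb further on, was at 0.119 and 0.0678 FPKM. Of the nearest measured genes outside this cluster, Rundc3b was at 9.39 FPKM in wild type cells and 6.89 FPKM in Pkm2-/- cells, and Crot, a peroxisomal acyltransferase, at 14.6 and 13.2 FPKM. Neither flanking gene reached a 1.5-fold difference.

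Abcg2, a luminal exporter of drugs and urate (chr6:58584523-58695676, plus strand), was at 23.3 FPKM in wild type cells and 14.2 FPKM in Pkm2-/- cells, 1.63-fold lower (1.54 to 1.74). Abcc5, which exports cyclic nucleotides and other organic anions (chr16:20331303-20426394, minus strand), was at 5.59 FPKM in wild type cells and 3.06 FPKM in Pkm2-/- cells. It was 1.83-fold lower (1.61 to 2.09). Abcc3, a pump of the blood-facing membrane for glucuronides and bile acids (chr11:94343295-94392997, minus strand), was at 53.4 and 38.3 FPKM, 1.39-fold lower (1.34 to 1.45) and so inside the 1.5-fold limit. These 3 genes stood in the same direction as the Abcb1 pair, with smaller differences.

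The other exporters were closer between the libraries, and 2 had the higher value in Pkm2-/- cells. Abcc1, a widely expressed pump for glutathione conjugates, was at 6.26 FPKM in wild type cells and 7.995 FPKM in Pkm2-/- cells, a log2 ratio of 0.31. Abcc6, known for its part in preventing tissue calcification, was at 1.15 and 1.32 FPKM. Abcc10, a broad drug exporter, was at 11.8 FPKM in wild type cells and 11.2 FPKM in Pkm2-/- cells. Abcc4, which exports cyclic nucleotides and prostaglandins, was at 2.24 and 1.99 FPKM. For Abcc4, Abcc6 and Abcc10 the counting interval of the ratio included 1.

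Several epithelial marker lists stood lower in Pkm2-/- cells, as most exporters did. The 8 absorptive colonocyte markers summed to 7965 FPKM in wild type cells and 5095 FPKM in Pkm2-/- cells, with 7 of 8 below 0 in log2 ratio and a median of -0.79. Among them Car4 was at 275 and 53.0 FPKM and Aqp8 at 67.3 and 12.7 FPKM, while Krt20 was at 331 and 333 FPKM. Medians were also below 0 for enteroendocrine (-0.76, 5 of 6 below 0), goblet (-0.27, 5 of 7) and tuft markers (-0.21, 4 of 4). Over all genes, 41.2% were below 0 and 58.8% above 0. The 8 general epithelial markers had a median of 0.17, with 6 above 0 and 2 below. The stem and cycling markers stood higher in Pkm2-/- cells, with sums of 95.3 and 171 FPKM and 5 of 5 measured genes above 0. Olfm4 was near the floor in both libraries, at 0.0646 and 0 FPKM. The part of these lists in the exporter values was not tested. In bulk RNA, fewer cells of a type and less RNA per cell cannot be told apart.

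**Figure D3:**
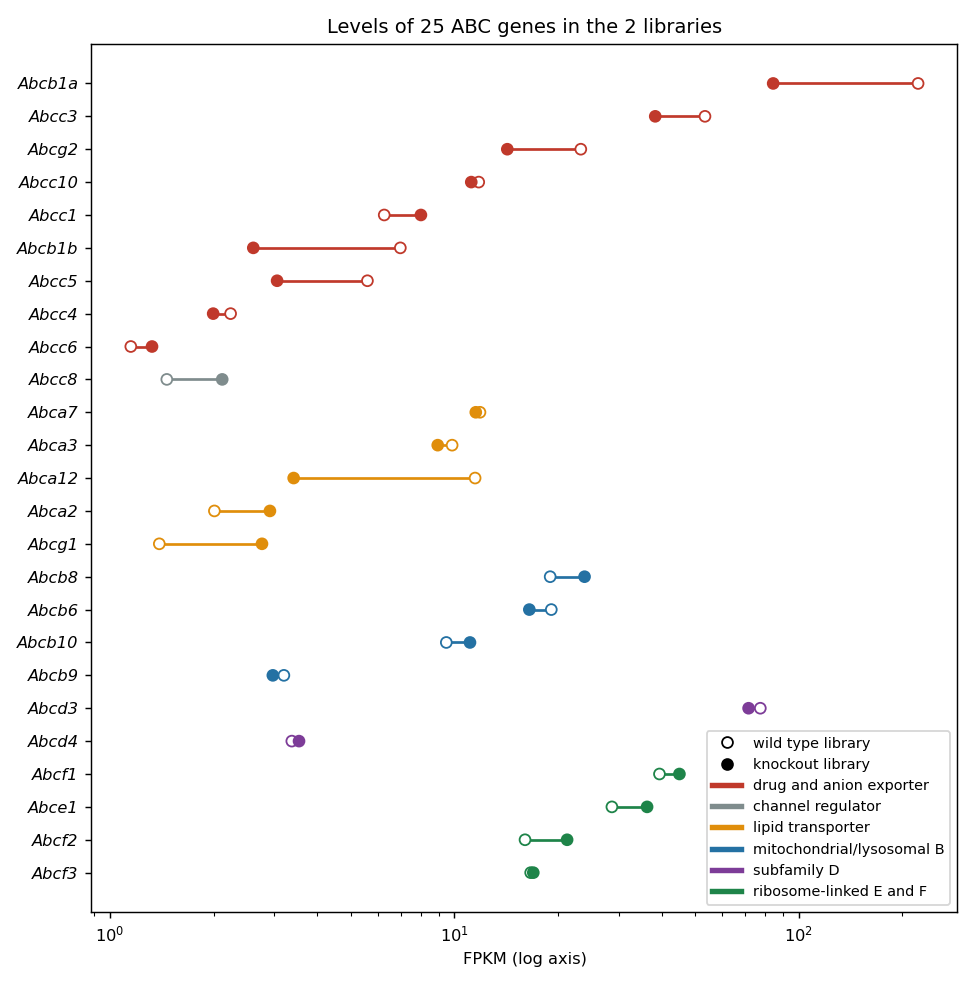
Each row is 1 of 25 measured ABC genes, with FPKM on a log axis, an open circle for the wild type and a filled circle for the knockout library, coloured by role. Abcb1a lies highest in both, at 222 and 84.3 FPKM, and on this axis the widest gaps belong to Abca12, Abcb1b and Abcb1a.

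Among the measured members, the lipid transporters held both the largest ratio downward, in Abca12, and the largest upward, in Abcg1. Abca12, which carries glucosylceramide into the lamellar bodies of skin cells (chr1:71242276-71414910, minus strand, 53 exons), was at 11.5 FPKM in wild type cells and 3.41 FPKM in Pkm2-/- cells. It was 3.37-fold lower (3.08 to 3.68, from about 1970 and 652 fragments). The nearest measured genes on either side stood higher in Pkm2-/- cells, Bard1 at 1.80 and 2.44 FPKM and Atic at 32.6 and 47.5 FPKM.

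Abcg1, which exports cholesterol to high-density lipoprotein (chr17:31057675-31117988, plus strand), was at 1.39 FPKM in wild type cells and 2.76 FPKM in Pkm2-/- cells, 1.99-fold higher (1.64 to 2.43). It is a low transcript here, resting on about 152 and 337 fragments. Abcg1 is abundant in macrophages, whose 8 markers summed to 7.21 FPKM in wild type cells and 9.11 FPKM in Pkm2-/- cells. Of these, 2 of the 4 measured ones were above 0, and Marco was near the floor in both libraries, at 0.0218 and 0 FPKM. The 8 T cell markers summed to 16.8 and 75.5 FPKM, with all 7 measured ones above 0, beside 58.8% of all genes. Their part in the Abcg1 value was not tested.

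Abca2, a lipid transporter of endosomes and lysosomes, was at 2.01 FPKM in wild type cells and 2.91 FPKM in Pkm2-/- cells, a log2 ratio of 0.38. Abca7, a phospholipid exporter, was at 11.9 and 11.5 FPKM. Abca3, the lamellar body transporter of lung surfactant lipids, was at 9.85 FPKM in wild type cells and 8.95 FPKM in Pkm2-/- cells. Its value is uncertain, because 12.9% of its 31-base words occur in the antisense gene D330041H03Rik, listed at 9.38 and 7.49 FPKM, and strand use is not stated. Over the 5 lipid transporters the median log2 ratio was -0.04, with 3 below 0 and 2 above 0.

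Sterol genes around these transporters showed no common direction. Of 20 genes for sterol traffic and the liver X receptors, which switch on Abca1 and Abcg1, 16 were measured, with 10 above 0, 6 below 0 and a median of 0.09. The receptors Nr1h2 (46.3 and 49.0 FPKM) and Nr1h3 (4.72 and 4.52 FPKM) were close between the libraries. Apob, the structural protein of chylomicrons, was at 22.2 FPKM in wild type cells and 8.20 FPKM in Pkm2-/- cells, 2.71-fold lower. Soat2, which esterifies cholesterol, was at 1.08 and 3.01 FPKM. Apoe, a cholesterol acceptor, was at 6.39 FPKM in wild type cells and 11.4 FPKM in Pkm2-/- cells, and Npc1, which releases cholesterol from lysosomes, at 9.65 and 6.99 FPKM.

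The organelle members of subfamily B were divided. Of 5 members, 3 were above 0 in log2 ratio and 2 below, close to the 58.8% of all genes above 0. Their median was 0.21, and 0 reached a 1.5-fold difference on the scale with 1 FPKM added. Abcb8, a transporter of the mitochondrial inner membrane, was at 19.0 FPKM in wild type cells and 23.9 FPKM in Pkm2-/- cells, 1.26-fold higher (1.16 to 1.36). Abcb10, a mitochondrial transporter needed for heme synthesis, was at 9.48 and 11.1 FPKM, but the files give it a locus 145 times as long as the gene, so what its value covers is uncertain. Abcb6, a porphyrin transporter, was at 19.1 FPKM in wild type cells and 16.5 FPKM in Pkm2-/- cells, 1.16-fold lower (1.07 to 1.25), a value made uncertain by the 68.5% of its 31-base words found in the overlapping gene Gm29253. Abcb9, a lysosomal peptide transporter, was at 3.20 and 2.97 FPKM. Of 20 heme and iron-sulfur genes, all measured, 15 were above 0, beside 58.8% of all genes, and 5 below, with a median of 0.13. The cluster assembly gene Nubp1 was at 13.4 FPKM in wild type cells and 20.9 FPKM in Pkm2-/- cells. The carrier Slc25a38, which brings glycine into mitochondria, was at 8.31 and 11.6 FPKM, and the heme enzyme Urod at 19.1 and 15.01 FPKM.

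None of the 3 measured members of subfamily D reached a 1.5-fold difference. Abcd3, the peroxisomal carrier of branched fatty acids and bile acid precursors, was at 77.4 FPKM in wild type cells and 71.5 FPKM in Pkm2-/- cells, 1.08-fold lower (1.04 to 1.12). Abcd4, a lysosomal protein of vitamin B12 handling, was at 3.37 and 3.54 FPKM. Of 18 peroxisome genes that work beside these carriers, all measured, 13 were below 0, beside 41.2% of all genes, with a median of -0.17. Acaa1b, a thiolase, was at 12.6 FPKM in wild type cells and 5.62 FPKM in Pkm2-/- cells, 2.24-fold lower. Acsl1, an acyl-CoA synthetase, was at 9.46 and 6.44 FPKM, and Mmachc, a vitamin B12 processing protein, at 3.94 and 5.71 FPKM.

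Subfamily E, the single gene Abce1, took 4.57% of the family sum in wild type cells and 7.59% in Pkm2-/- cells, and subfamily F took 11.5% and 17.4%. The family sum was itself lower in Pkm2-/- cells (627 and 478 FPKM), so these shares differ more than the levels do. The summed level of these ribosome-linked members was 101 FPKM in wild type cells and 120 FPKM in Pkm2-/- cells, and none of the 4 reached a 1.5-fold difference. Abce1, which splits ribosomes for reuse, was at 28.7 and 36.3 FPKM, 1.27-fold higher (1.20 to 1.34). Abcf1, which binds initiation factor eIF2, was at 39.4 FPKM in wild type cells and 45.0 FPKM in Pkm2-/- cells, 1.14-fold higher (1.08 to 1.21). Abcf2 was at 16.0 and 21.3 FPKM, 1.33-fold higher (1.21 to 1.45). Abcf3, known for an antiviral role, was at 16.7 FPKM in wild type cells and 17.0 FPKM in Pkm2-/- cells, with a ratio of 1.02 (0.933 to 1.11) that fell to 0.960 when the libraries were scaled to equal medians. Abce1, Abcf1 and Abcf2 share 6.17%, 6.29% and 8.11% of their 31-base words with a processed pseudogene each.

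The list of ribosome recycling and translation genes held 18 symbols, of which 16 matched the files and all of these were measured. Of the 16, 15 were above 0, beside 58.8% of all genes, with a median of 0.28. The stem and cycling markers stood the same way (95.3 and 171 FPKM in sum, 5 of 5 measured above 0), and their part in the values of these lists was not tested. The termination factors Gspt1 (39.1 FPKM in wild type cells and 59.7 FPKM in Pkm2-/- cells) and Etf1 (33.5 and 47.7 FPKM) had the largest positive log2 ratios. The initiation factor subunit Eif2s1 was at 16.0 and 21.5 FPKM. Eif2s2, another subunit of the same factor, was the 1 gene below 0, at 117 FPKM in wild type cells and 86.2 FPKM in Pkm2-/- cells.

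**Figure D4:**
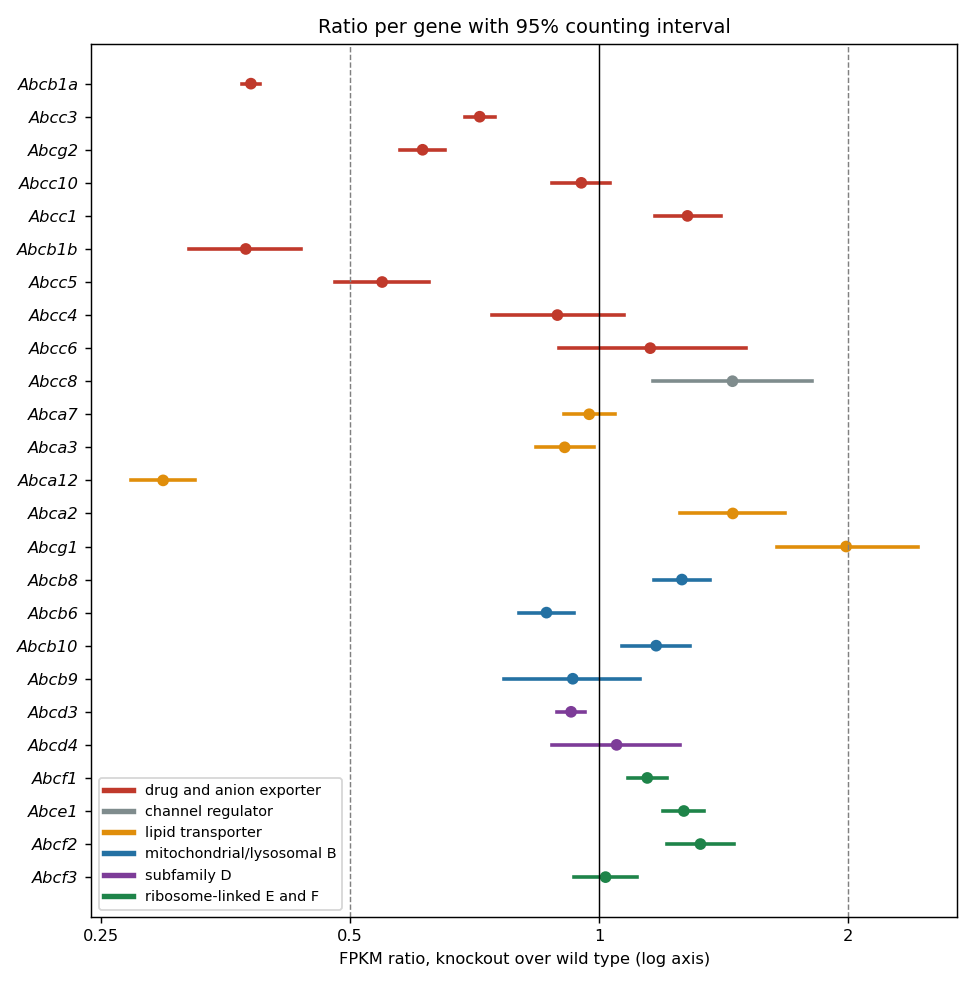
Points give the FPKM ratio of knockout over wild type for 25 measured ABC genes on a log axis, coloured by role, and bars give the approximate 95% counting interval, which covers counting error only. The bar excludes 1 for 18 of them, 9 lower and 9 higher, and Abcb1a, Abcb1b and Abca12 lie left of the 0.5 line.

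Abcc8 encodes the sulfonylurea receptor, a regulator of potassium channels in hormone-secreting cells. It was at 1.46 FPKM in wild type cells and 2.12 FPKM in Pkm2-/- cells, a log2 ratio of 0.34. The 6 enteroendocrine markers, in contrast, summed to 311 FPKM in wild type cells and 192 FPKM in Pkm2-/- cells. Of these markers, 5 of 6 were below 0, beside 41.2% of all genes.

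The remaining 19 members had a mean under 1 FPKM, and no fold is given for them. They were 10 of 14 in subfamily A, 2 of 9 in B, 2 of 9 in C, 1 of 4 in D and 4 of 6 in G. In sum they made 4.30 FPKM in wild type cells and 2.78 FPKM in Pkm2-/- cells. Of these, 13 were listed in both libraries, 4 in wild type cells only and 2 in Pkm2-/- cells only. Over all genes, 20793 were listed in wild type cells and 20604 in Pkm2-/- cells. The same split over all genes under 1 FPKM is not given here, so these counts are not read as a trait of the family.

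The partners Abcg5 and Abcg8, which together export plant sterols and cholesterol into the lumen, were at the edge of detection. Abcg5 was at 0.992 FPKM in wild type cells and 0.245 FPKM in Pkm2-/- cells, from about 44 and 12 fragments, and Abcg8 was at 0.529 and 0.193 FPKM, from about 36 and 15 fragments. They overlap on opposite strands, and the files give both the same locus. Abcc2, a luminal pump for conjugates, was at 0.525 FPKM in wild type cells and 0.0859 FPKM in Pkm2-/- cells, from about 79 and 14 fragments. All 3 stood lower in Pkm2-/- cells. Of the 19 low members, 14 were higher in wild type and 5 in Pkm2-/- cells. Many of these values rest on few fragments, such as Abca15 on about 2 and 0 and Abca9 on about 2 and 1. The same split over all genes under 1 FPKM is not given here. Abca1, the cholesterol exporter regulated with Abcg1, was at 0.517 and 0.509 FPKM. Abca5 was at 0.688 FPKM in wild type cells and 0.315 FPKM in Pkm2-/- cells. Abca13, the longest member with 5034 codons, was at 0.0714 and 0.650 FPKM, from about 21 and 217 fragments. It was the 1 low member with a clearly larger count in Pkm2-/- cells, and the other 13 did not exceed 0.305 FPKM in either.

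Carriers that supply the exporters or handle bile acids did not share a direction. Of 20 such genes, 16 were measured, with 8 above 0, 8 below 0 and a median of -0.08. Slc10a2, which takes up bile acids from the lumen, was at 53.2 FPKM in wild type cells and 9.56 FPKM in Pkm2-/- cells, 5.57-fold lower. Fabp6, the bile acid carrier of the cytosol, was at 7.64 and 41.6 FPKM, 5.45-fold higher. Slc15a1, a peptide carrier, was at 2.46 FPKM in wild type cells and 0.678 FPKM in Pkm2-/- cells, 3.62-fold lower. Slc51a, a subunit of the blood-facing bile acid exporter that is also in the colonocyte list, was at 57.2 and 30.3 FPKM, while its partner Slc51b was at 24.7 and 24.8 FPKM.

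Receptors that switch on exporter genes were listed with their partners. Of these 20 genes 18 were measured, and 0 reached a 1.5-fold difference on the scale with 1 FPKM added, which 9.75% of all genes did. Their median log2 ratio was 0.03, which turned to -0.044 with equal medians and to -0.027 with equal upper quartiles. The xenobiotic receptor Nr1i2, which regulates Abcb1a, was at 26.4 FPKM in wild type cells and 17.8 FPKM in Pkm2-/- cells, and the bile acid receptor Nr1h4 at 65.8 and 44.7 FPKM. These 2 had the largest negative log2 ratios of the list, -0.55 each, which is just inside the 1.5-fold limit. Nr5a2 was at 16.1 and 21.6 FPKM and the aryl hydrocarbon receptor gene Ahr at 3.27 and 4.42 FPKM. Nfe2l2, the oxidative stress regulator, was at 86.6 and 87.9 FPKM, and Hnf4a, an enterocyte regulator, at 168 and 190 FPKM.

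Proteins of the ABC fold under other symbols stood higher in Pkm2-/- cells, all 3 of them, beside 58.8% of all genes above 0. With only 3 genes, of which Tap1 and Tap2 belong to the same transporter, this describes these genes and not a group. Tap1, a subunit of the peptide transporter that loads MHC class I, was at 59.6 FPKM in wild type cells and 165 FPKM in Pkm2-/- cells, 2.77-fold higher. Its partner Tap2 was at 27.2 and 42.4 FPKM, 1.56-fold higher. The chloride channel gene Cftr was at 26.2 FPKM in wild type cells and 35.4 FPKM in Pkm2-/- cells, 1.35-fold higher. The median log2 ratio of the 3 was 0.62.

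**Figure D5:**
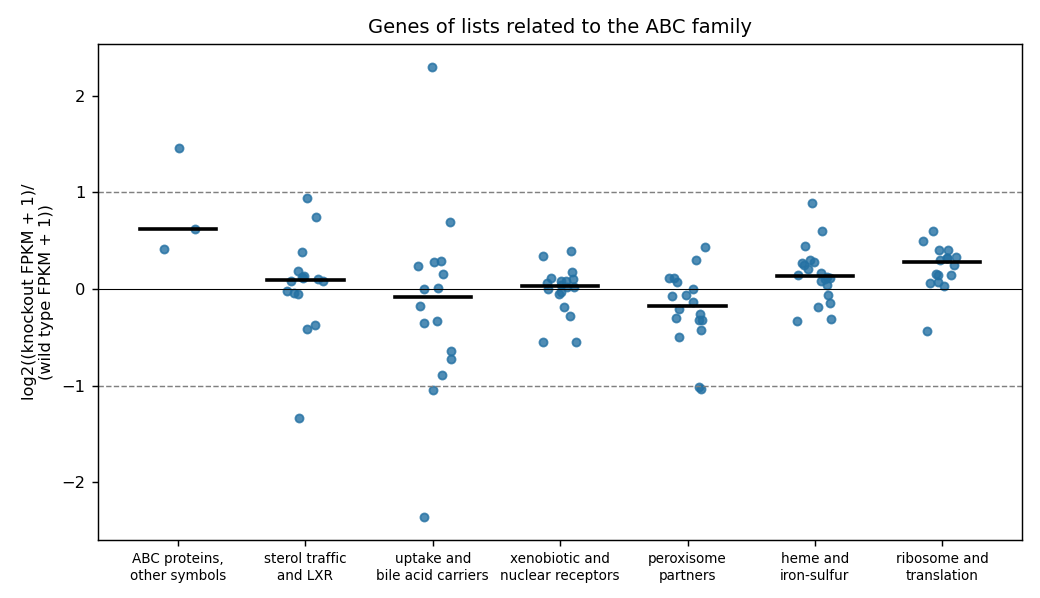
Each point is a measured gene of 1 of the 7 lists related to the ABC family, placed by its log2 ratio (knockout to wild type), with a bar for the list's median and dashed lines at 2-fold. Medians run from -0.17 for peroxisome partners to 0.62 for ABC proteins under other symbols, and the translation list has 15 of 16 points above 0.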

How the data were processed

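Messenger RNA libraries of 1 wild type and 1 Pkm2-/- preparation were compared. Per the labels, RNA was extracted with Trizol and an mRNA kit made the libraries, run on an Illumina HiSeq. The authors deposited 1 value per gene, read here as FPKM, a unit inferred from the values and tools because the tables have no header. Cufflinks 2.2.1, Cuffdiff (1.3.0 and 2.2.1), TopHat2 2.1.1 and Bowtie2 2.2.9 with build mm8 are named, per the submitters' processing notes, but 99.9% of the loci matched GENCODE M21 on GRCm38, which was used. FPKM divides by the mapped total, so abundant transcripts can shift all values: mitochondrial genes and 7 nuclear copies made up 30.0% of the wild type and 26.1% of the knockout sum.

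Ratios were log2((knockout + 1)/(wild type + 1)) for genes averaging at least 1 FPKM, counted at 2-fold and 1.5-fold. Folds are plain FPKM ratios, with Clopper-Pearson 95% intervals on fragments implied by the 1-fragment step (0.0533 and 0.0479 FPKM times kb) and the longest transcript. Such intervals are approximate and cover counting error only. All members averaging at least 1 FPKM were named, except 2 that, like some genes of the related lists, are not reported here, with folds and intervals for those 1.5-fold apart and the 10 most abundant, and lower ones from 0.5 FPKM. Up to 4 genes per related list, plus any at least 2-fold apart, were named by size of ratio. Others (Nr1h2, Nr1h3, Slc51b, Nfe2l2, Hnf4a, neighbouring genes) and the sequences shown were chosen after values were seen. Protein stretches were planned, and coding DNA is shown in their place. The members, roles and lists were chosen with earlier results of these data known. Python 3.11.15, pandas 2.3.3 and scipy 1.17.1 were used, and the code was tested on simulated data.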

Additional observations from a re-analysis of the deposited data

How the results depend on the processing

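The results were recomputed with pseudocounts of 0.1 and 5 FPKM, with no filter and a minimum mean of 5 FPKM, and with 3 other scalings (equal medians, equal upper quartiles, and sums without mitochondrial genes and their copies). Of 133 recomputed counts and medians, 113 stayed within the limits set for them, which were 1.5 times for a count and, for a median, the same sign and the binomial 95% range of a median over its genes (for subfamily E, with 1 gene, its counting interval). The number of members at least 2-fold lower was 3 and became 1 with a pseudocount of 5 FPKM, 2 with a minimum mean of 5 FPKM and 4 with sums without mitochondrial genes. The number at least 1.5-fold lower was 5 and became 3 with that pseudocount, 3 with a minimum mean of 5 FPKM, 6 without a filter and 7 with sums without mitochondrial genes. The number at least 1.5-fold higher was 1 and became 2 with a pseudocount of 0.1 FPKM, 2 without a filter and 2 with sums without mitochondrial genes, and 0 with a pseudocount of 5 FPKM and 0 with a minimum mean of 5 FPKM. The family median log2 ratio of 0.02 became -0.016 without a filter, -0.0067 with a minimum mean of 5 FPKM, -0.056 with equal medians, -0.038 with equal upper quartiles and -0.027 with sums without mitochondrial genes. The median of subfamily G, over 2 genes, was -0.0087 and became 0.12 with a pseudocount of 0.1 FPKM. With sums without mitochondrial genes it was -0.70, over a changed set of genes, since the ratios of Abcg1 (1.99) and Abcg2 (0.61) stayed the same. The counts and medians under this scaling thus cover a different set of members past the 1 FPKM filter. Subfamily B went from -0.08 to 0.21 with a minimum mean of 5 FPKM, which leaves fewer genes. With equal medians, subfamily D went from 0.05 to -0.012, subfamily E from 0.33 to 0.25, and the xenobiotic receptors from 0.03 to -0.044, which was -0.027 with equal upper quartiles. Where a filter or scaling does not show it by its construction, the cause was not tested. Under the 3 scalings the folds of Abcb1a (2.64 to 2.79 lower), Abcb1b (2.67 to 2.83 lower) and Abca12 (3.37 to 3.57 lower) kept their direction. So did those of Abcc5 (1.83 to 1.94 lower), Abcg2 (1.63 to 1.73 lower) and Abcg1 (1.87 to 1.99 higher). Each scaling multiplies every fold by the same factor, 0.943 with equal medians and 0.956 with equal upper quartiles. Folds of this size could not change direction under such factors, so their direction was not put to a test. No paired analysis was possible because each genotype has 1 library, which also leaves differences between mice, preparations and genotypes that cannot be told apart.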
